A study of Sus scrofa with 36 samples.

Results

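The nuclear genes of the mitochondrial respiratory chain and the mitochondrial carriers were followed in the liver of 36 castrated male growing pigs. The genes were chosen by name from the scanner tables: NDUF names (complex I), SDHA to SDHD (complex II), UQCR names (complex III), COX4 to COX8 names (complex IV), ATP5 names (ATP synthase) and SLC25 names (the mitochondrial carrier family). The rule matched 285 spots of 109 genes, of which 273 spots of 107 genes had signal well above background on 6 or more of the 36 arrays. COX8H and NDUFAF1 did not pass this filter, each being well above background on at most 1 array. All names were read in capitals, since 39 of the spots had a name in lower or mixed case and these were the only spots of 17 genes. The kept genes were 33 of complex I, 3 of complex II, 8 of complex III, 15 of complex IV, 15 of ATP synthase, 29 carriers, and 4 others, which were assembly factors and genes whose name only resembles that of a subunit. NDUFA4 and NDUFA4L2 were placed with complex IV, where NDUFA4 is now known to belong. The whole array gave 33056 tested features, a feature being a gene name or a probe without one.

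The animals were Large White (LW), a lean European breed, Creole (CR), a local breed of the Caribbean, and their Large White × Creole cross (F1), with 12 pigs each. In each genetic group, 6 pigs were killed at thermoneutrality (TN, 24 °C) and 6 after heat stress (HS) of up to 5 days. All had free access to the same feed and were kept in one climatic room. The study reports that the challenged pigs ate less in the heat than before it. The labels of HS animals give 30 °C and the growth protocol 32 °C. All TN pigs were killed before any HS pig. The effects of heat, of lower feed intake, of the day of slaughter and of the few days of added age cannot be told apart. Pigs were arranged in blocks of littermates and shared pens within a genetic group, which the labels do not give, so the p-values treat related animals as separate.

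The respiratory chain passes electrons from NADH (complex I) and succinate (complex II) through complex III to complex IV, cytochrome c oxidase, which reduces oxygen to water. Complexes I, III and IV pump protons out of the matrix, and ATP synthase uses the return flow to make ATP. The catalytic core of complex IV is encoded in the mitochondrial genome, whereas the subunits measured here are made from nuclear genes and imported. Most SLC25 carriers move nucleotides, phosphate and metabolites across the inner membrane, among them citrate for fatty acid synthesis and the amino acids of the urea cycle, both large fluxes in liver.

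Each value rests on 60-base probes, and 59 of the 107 kept genes had more than 1 kept probe, up to 15. Probes of 1 gene often overlapped, so they repeat a measurement rather than replicate it. The sequences behind the temperature result are shown because they tell which probes of a gene overlap. Of 6 COX7A2 probes, 5 shared a stretch of 45 bases, part of which is printed with AATAAA, the usual polyadenylation signal, in capitals. COX6B had 2 such probes of 3 and COX5B 2 of 4, and the only COX7B probe holds ATTAAA, a common variant of that signal, in capitals. AATAAA stood in the printed strand of 58 of 273 kept member probes (21.2%) and of 5098 of 44796 kept probes on the array (11.4%).
COX7A2: tgacttgtactaactgccaccAATAAAgca
COX6B: aatcatggtttaactaatAATAAAtactca
COX5B: cgctggcaagtttcttccAATAAAgactag
COX7B: taaaagcactgtgtacccATTAAAatatgg

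The other pair of COX5B probes read the same place in opposite directions. The capitals mark the 56 bases that the first probe shares with the reverse complement of the second. The second is called the reversed probe here because it was the dimmer of the pair, although it was well above background on all 36 arrays. SLC25A1 had such a pair too.
COX5B, sense probe: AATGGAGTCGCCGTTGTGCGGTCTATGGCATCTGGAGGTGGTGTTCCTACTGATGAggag
COX5B, reversed probe: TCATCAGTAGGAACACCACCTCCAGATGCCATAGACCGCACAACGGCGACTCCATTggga

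Between 39644 and 44025 of 60306 non-control spots were well above background per array. The mean number was 41690 ± 898 for TN arrays and 41967 ± 1217 for HS arrays (SD, n = 18 each). The hepatocyte markers were present as labelled: 7 of 8 were kept, and their mean log2 signal ranged from 16.56 to 16.84 in TN and from 16.68 to 16.87 in HS. None of the marker genes of hepatocytes, macrophages, lymphocytes, endothelium, stellate cells, bile duct, erythroid cells, muscle or adipocytes passed the threshold between HS and TN. All 7 hepatocyte markers were above 0 in HS minus TN (median 0.057), with means of 16.7 ± 0.071 in TN and 16.77 ± 0.053 in HS. All 3 bile duct markers were above 0 too (0.14 to 0.19), while 4 of 5 macrophage and 4 of 5 T and B cell markers were below 0. The part of these shifts in the subunit differences was not tested. In whole liver, fewer cells of a type and less RNA per cell cannot be told apart. On the first principal component (18.2% of the variance), 10 LW animals lay between -37.0 and -18.8. LW TN replicates 1 and 6 lay apart from them, at -4.11 and -3.28, while F1 HS replicates 1 and 2 and F1 TN replicate 3 lay on the LW side, at -13.7, -15.5 and -14.5. Results are given with these 5 arrays and, where it matters, without them. The animal codes in the sample titles run in order by genetic group, with an exception. The codes of F1 HS replicates 1 and 2 come before those of LW TN replicates 1 and 6. Whether labels were exchanged was not tested, and all arrays were kept in their labelled groups.

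The first comparison asked how hepatic transcripts for oxidative phosphorylation differed between heat-stressed and thermoneutral pigs. The differences were small. Of the 107 genes, 4 were past the threshold of an adjusted p of 0.05 (limma, Benjamini-Hochberg over all features), all lower in HS and all of complex IV: COX7B, COX6B, COX7A2 and COX5B. Over the whole array, 0.832% of features were called in either direction and 0.39% lower in HS. At an unadjusted p below 0.05, 25 of the genes (23.4%) were counted against 12.9% of all features, and 21 of these 25 were lower in HS (5.97% of all features were). Much of the chain is bright, and among features with a mean log2 signal of at least 12, 1.88% were called and 43.3% lay below 0, against 4 and 41 of the 54 genes that bright. The median HS minus TN difference in log2 signal was -0.035 over the genes and 0.0020 over all features, and 72 of 107 genes were below 0 against 48.9% of all features.

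**Figure D1:**
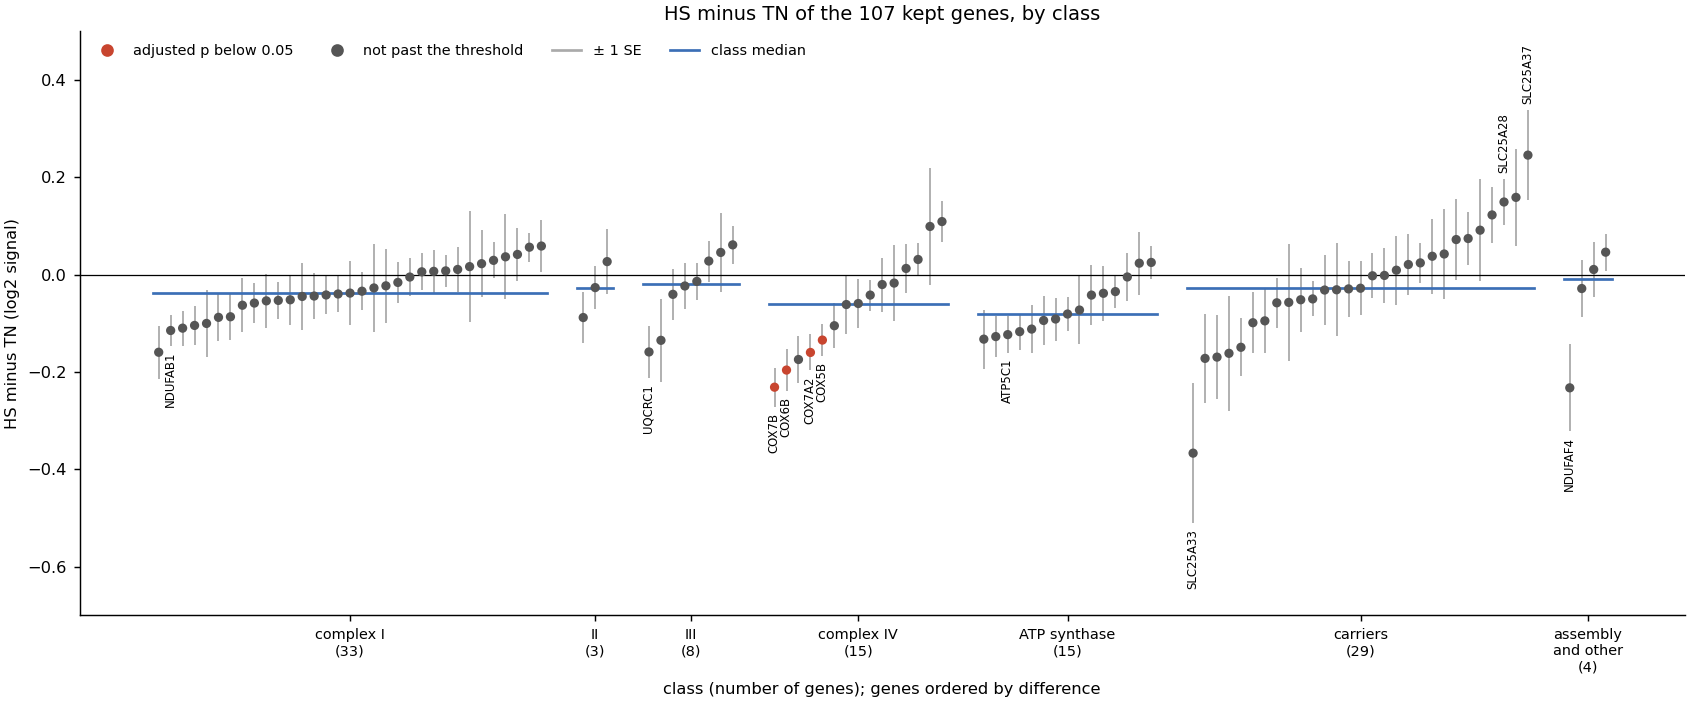
HS minus TN difference in log2 signal (vertical axis, ± 1 SE) for the 107 kept genes, grouped by class along the horizontal axis and ordered by difference. Red points passed the threshold and blue lines are class medians. The 4 red points, COX7B, COX6B, COX7A2 and COX5B, all lie in complex IV, and the ATP synthase genes lie mostly below 0 without passing it.

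COX7B, a small subunit of cytochrome c oxidase, had the smallest p. Its log2 signal ranged from 14.10 to 14.53 (median 14.35) in the 18 TN animals and from 13.86 to 14.32 (median 14.12) in the 18 HS animals. The ranges overlapped, but every HS animal lay below the TN mean of its own genetic group. COX7B fell by 0.23 on the log2 scale (SE 0.040, adjusted p = 0.00391) or fell by 14.8% on the linear scale. LW animals differed by -0.19, CR by -0.27 and F1 by -0.23.

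COX6B encodes a subunit on the intermembrane side of the enzyme. In TN it spanned log2 signals from 12.22 to 12.68 (median 12.46), and in HS from 12 to 12.45 (median 12.33), with 17 of 18 HS animals below the TN mean of their genetic group. It fell by 0.20 on the log2 scale (SE 0.044, adjusted p = 0.0258). COX6B1 was listed as a separate name with a probe of its own, and COX6B is an older symbol of the same gene. Its difference was -0.17 (SE 0.048) with an adjusted p of 0.0665, and with both names merged the number of genes called was again 4.

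COX7A2 is the form of the COX7A subunit found in most tissues, liver included. The log2 signal lay from 13.03 to 13.38 (median 13.16) in TN and from 12.87 to 13.23 (median 13.02) in HS, and 16 of 18 HS animals lay below the TN mean of their genetic group. It fell by 0.16 on the log2 scale (SE 0.037, adjusted p = 0.0312). COX7A1, the form of heart and skeletal muscle, differed by 0.013 (SE 0.050, adjusted p = 0.953).

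COX5B encodes a nuclear subunit on the matrix side. Its log2 signal ranged from 14.06 to 14.37 (median 14.16) in TN and from 13.88 to 14.19 (median 14.03) in HS, with 17 of 18 HS animals below the TN mean of their genetic group. It fell by 0.13 on the log2 scale (SE 0.033, adjusted p = 0.0422). Of its 4 probes, the reversed one was the only one called alone (-0.17, SE 0.039, adjusted p = 0.0284). Without it the difference was -0.12 and the adjusted p 0.0734, so the COX5B call rests on a probe of uncertain target.

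**Figure D2:**
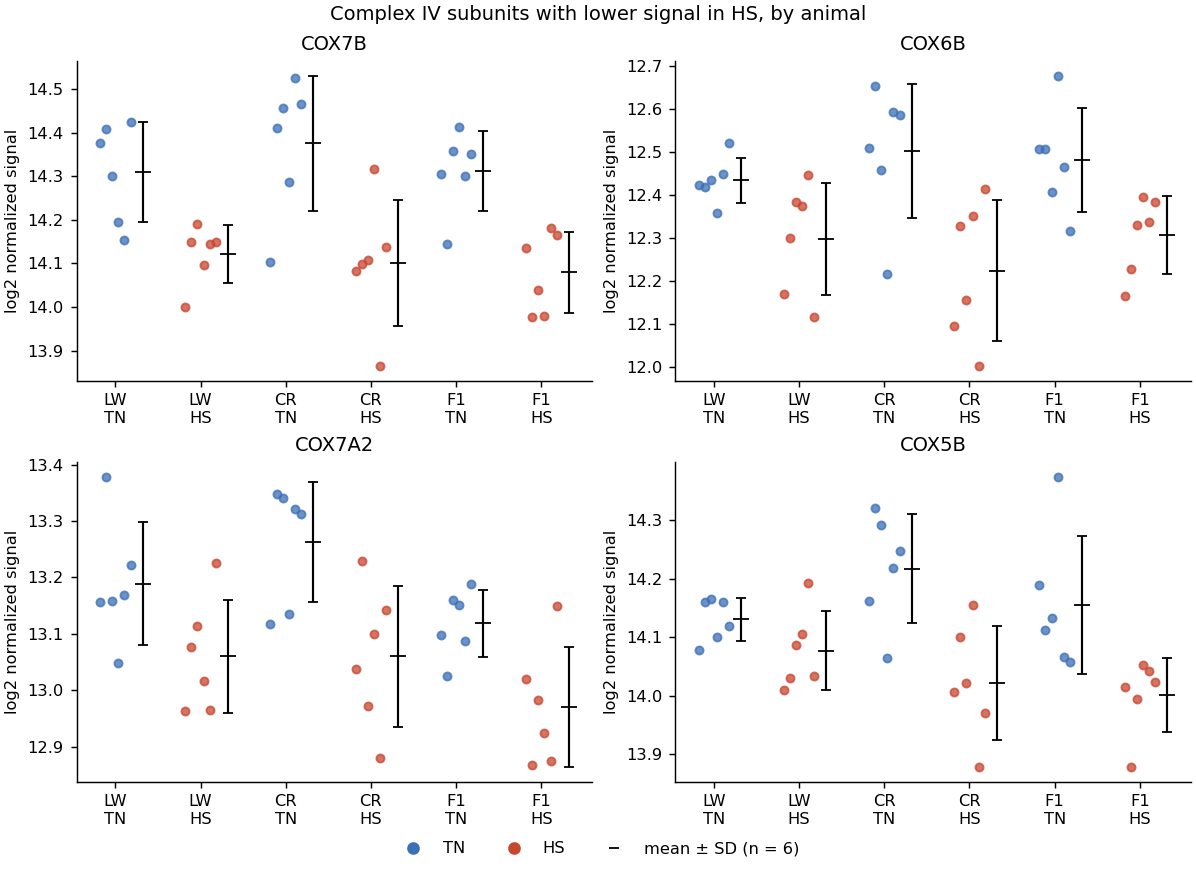
Log2 normalized signal of COX7B, COX6B, COX7A2 and COX5B (vertical axes) in each animal, by genetic group and temperature. Points are animals, and black bars are the mean ± SD of 6. In each panel the HS mean lies below the TN mean in LW, CR and F1, while single animals overlap.

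The probes of these genes gave one direction. The gene value is the mean of its probes and several of them overlap, so this repeats the calls and does not add to them. All 6 COX7A2 probes were lower in HS, from -0.19 to -0.13, as were 4 of 4 COX5B probes (-0.17 to -0.11) and 3 of 3 COX6B probes (-0.27 to -0.15). NDUFA4, a subunit first described in complex I, had 7 of 7 probes between -0.13 and -0.086, and its gene value was -0.11 (SE 0.046, adjusted p = 0.304). Other subunits gave values near 0 or above it. COX4I1, the general form of subunit IV, differed by -0.020 (SE 0.056) and COX4I2, its lung form, by -0.017 (SE 0.078), and COX5A, the partner of subunit IV, by 0.099 (SE 0.12). COX6A1 had 6 of 8 probes above 0, and all 3 COX7A1 probes were between 0.0026 and 0.029. COX7A2L, which joins complexes III and IV into supercomplexes, differed by 0.11 (SE 0.042, adjusted p = 0.225) with both probes above 0.

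**Figure D3:**
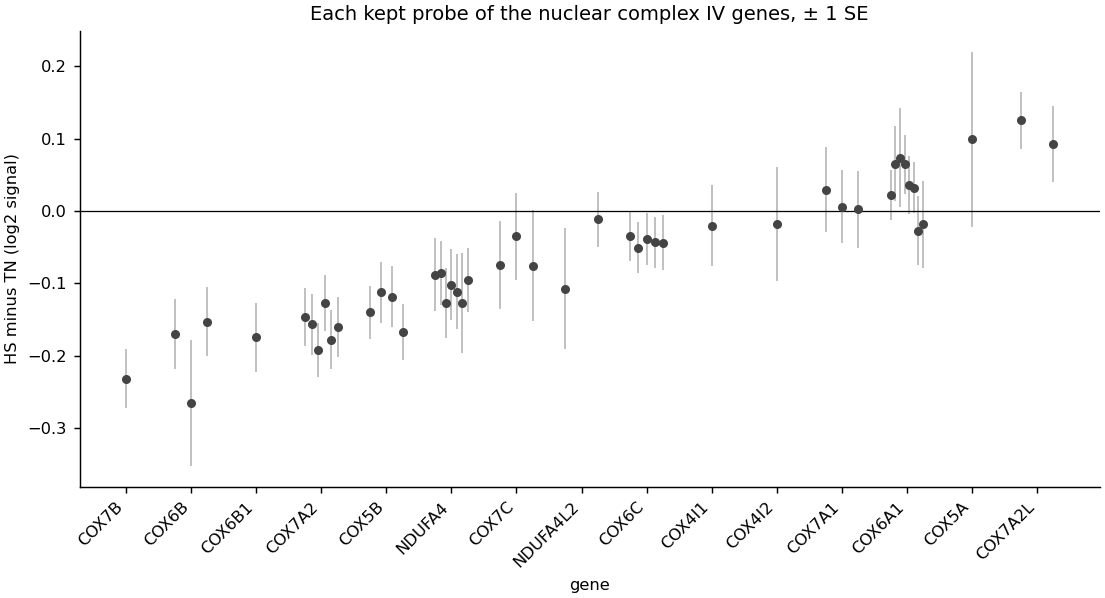
HS minus TN difference in log2 signal (vertical axis, ± 1 SE) of each kept probe of the 15 complex IV genes (horizontal axis), ordered by the gene mean. All probes of COX7B, COX6B, COX6B1, COX7A2, COX5B and NDUFA4 lie below 0, and both COX7A2L probes lie above it.

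The 4 calls were not equally stable, and COX7B kept its call under every other processing tried. COX7A2 and COX5B lost theirs with the processed signal, with the authors' log2 values, with the brightest probe and with no breed term, COX5B also with no filter on dim probes, and COX6B with the brightest probe or with every probe tested singly. Within slides, each holding 8 arrays with genetic group in the model, COX7B was -0.25, -0.15, -0.14 and -0.30 on slides 2 to 5, and COX6B, COX7A2 and COX5B were also below 0 on each of them (slide 1, with 4 arrays, gave no estimate). The signs within slides are a description only, since the 4 genes were called on the same arrays. COX7B and COX6B kept their calls when any 1 array was left out. COX7A2 lost its call without CR HS replicate 3, CR TN replicates 3, 5 or 6, F1 HS replicate 2 or LW TN replicate 2, when 2 genes were called, and COX5B lost its call without any of 21 arrays. All 4 calls were lost without slide 5. Without the 5 arrays lying apart, 1 gene was called (COX7B, -0.21, adjusted p = 0.0241).

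The remaining complex IV genes and the other complexes had no call. ATP synthase had 13 of 15 genes below 0, a median of -0.081, and 7 genes at an unadjusted p below 0.05, all lower in HS. The smallest p was that of ATP5C1, the gamma subunit of the rotor (-0.12, SE 0.038, adjusted p = 0.108). The catalytic subunits ATP5A1 (-0.073, SE 0.070) and ATP5B (-0.042, SE 0.061) were not past the threshold, although 15 of 15 ATP5A1 probes were below 0, between -0.13 and -0.0054. Medians of ATP synthase and of complex IV were below 0 under each alternative processing and with any array or slide left out. The same held for the medians of complex I and of all the genes together, so it was not particular to these classes.

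Complex I had 22 of 33 genes below 0 and a median of -0.038. NDUFB6, with 1 spot missing, had a gene value of 0.016 although both its probes were below 0 (-0.11 and -0.050). With probes centred before averaging it was at -0.071 (SE 0.057), which makes the counts 23 of 33 in complex I and 73 of 107 over all genes, and no other gene moved by more than 0.001. Its smallest p was that of NDUFAB1, which is also the acyl carrier protein of mitochondrial fatty acid synthesis (-0.11, SE 0.032, adjusted p = 0.0706). The iron-sulphur subunit NDUFS1 (0.0058, SE 0.038), the NADH-binding subunit NDUFV1 (-0.027, SE 0.091) and NDUFB8 of the membrane arm (0.056, SE 0.029) were not past the threshold. In complex II, SDHB was at -0.088 (SE 0.053) and SDHA at -0.027 (SE 0.044). In complex III, the core proteins UQCRC1 (-0.16, SE 0.053, adjusted p = 0.142) and UQCRC2 (-0.14, SE 0.085) and the Rieske protein UQCRFS1 (0.046, SE 0.081) were not past the threshold either. The assembly factor NDUFAF4 was at -0.23 (SE 0.089, adjusted p = 0.216).

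No carrier was called between HS and TN, and 17 of 29 were below 0. Of 5 carriers at an unadjusted p below 0.05, 3 were higher in HS. The smallest p was that of SLC25A28, mitoferrin 2, which brings iron into mitochondria (0.15, SE 0.047, adjusted p = 0.119). SLC25A37, mitoferrin 1, differed by 0.25 (SE 0.092, adjusted p = 0.201). The largest fall in size was that of SLC25A33, a pyrimidine nucleotide carrier, at -0.37 (SE 0.14, adjusted p = 0.226). SLC25A37 and SLC25A33 were picked out after their values were seen.

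Carriers of known roles in liver were not past the threshold. The ADP/ATP carriers SLC25A4 and SLC25A6 were at -0.058 (SE 0.051) and -0.15 (SE 0.060), and the phosphate carrier SLC25A3 at 0.024 (SE 0.041). The citrate carrier SLC25A1 was at -0.095 (SE 0.066). The urea cycle carriers SLC25A13 (aspartate/glutamate) and SLC25A15 (ornithine) were at -0.029 (SE 0.057) and -0.057 (SE 0.12), the carnitine carrier SLC25A20 at -0.17 (SE 0.086) and the ATP-Mg/phosphate carrier SLC25A25 at -0.17 (SE 0.092). SLC25A25 was dim, its probes being well above background on 6 and 8 arrays. SLC25A5 and SLC25A10 were not among the names on the array.

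The effect of temperature was then set out within each genetic group, where 6 HS animals faced 6 TN animals. No member gene was called in LW, CR or F1 by limma, against 0%, 0.0514% and 0.00908% of all features. At an unadjusted p below 0.05, 3 genes were counted in LW, 24 in CR and 12 in F1, against 5.05%, 7.28% and 9.3% of all features. In CR, 21 of the 24 were lower in HS (3.66% of all features were), with a complex IV median of -0.16 and an ATP synthase median of -0.13. For complex IV, LW had a median of -0.0087 and F1 one of -0.027. The interaction of genetic group and temperature called 0 of 107 genes and 0% of features, with 4 genes at an unadjusted p below 0.05 (3.76% of all features) and a smallest adjusted p of 0.999, so a difference between genetic groups in the temperature effect was not shown. Over all 3 genetic groups, 36 of 107 genes (33.6%) were lower in HS in each, against 15.9% of all features, and 11 (10.3%) were higher in each, against 17.6%.

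Genes that serve the same organelle outside these names had no call between HS and TN. The lists held other oxidative phosphorylation genes (23 tested, median -0.012), the tricarboxylic acid cycle and pyruvate entry (20 tested, median -0.057), regulators of mitochondrial biogenesis (15 tested, median 0.015) and other mitochondrial membrane proteins (21 tested, median -0.026). In the cycle list 16 of 20 genes were below 0. The coactivator PPARGC1A, a driver of mitochondrial biogenesis, was at 0.054 (SE 0.12) and TFAM, which binds and packages mitochondrial DNA, at -0.068 (SE 0.050). The 13 protein genes of the mitochondrial genome, looked at after these values were seen, had no call either, and all were below 0, from -0.31 for ATP8 (adjusted p = 0.0529) to -0.073 for COX3.

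Within groups of the same breed and temperature, the subunits varied together from animal to animal, mostly weakly. The mean correlation between gene pairs was taken over the 36 arrays after removing the group means. It was 0.13 in complex I, 0.51 in complex II (3 genes), 0.20 in complex III, 0.13 in complex IV and 0.21 in ATP synthase. Carriers gave 0.031 and all features 0.0031. Between classes it was 0.13 for complexes I and III, 0.15 for complex IV and ATP synthase, and 0.22 for complex III and ATP synthase. For complex I and carriers it was 0.034. Outside complex II, the correlation was therefore not particular to pairs from one complex. Complex II gave 0.13 with complex I, 0.24 with complex III, 0.15 with complex IV and 0.26 with ATP synthase, below its own 0.51. These values are descriptive and share the same arrays. The 4 genes called between HS and TN had pairwise correlations from 0.31 (COX6B with COX7A2) to 0.71 (COX6B with COX5B).

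The second set of comparisons asked how the genetic groups differed at either temperature. In CR minus LW, 22 of 107 genes were called (20.6%) against 25.2% of all features, and 8 were higher in CR and 14 lower, against 14.3% and 10.9% of all features. In F1 minus LW, 20 were called (18.7%) against 16.5% of all features, and 5 were higher in F1 and 15 lower, against 9.31% and 7.18%. Both comparisons use the same LW animals, so the values are set side by side and their likeness is not a result. In CR minus LW, 4 genes of complex I were higher and 5 lower, and 3 carriers were higher and 5 lower. In F1 minus LW, 1 gene of complex I was higher and 5 lower, and 4 carriers were higher and 3 lower. Complex IV, which held all calls of the temperature comparison, gave 1 call in CR minus LW (COX7A2L, -0.17) and 2 in F1 minus LW (COX7A2L, -0.20, and COX6A1, -0.18), all lower than in LW.

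**Figure D4:**
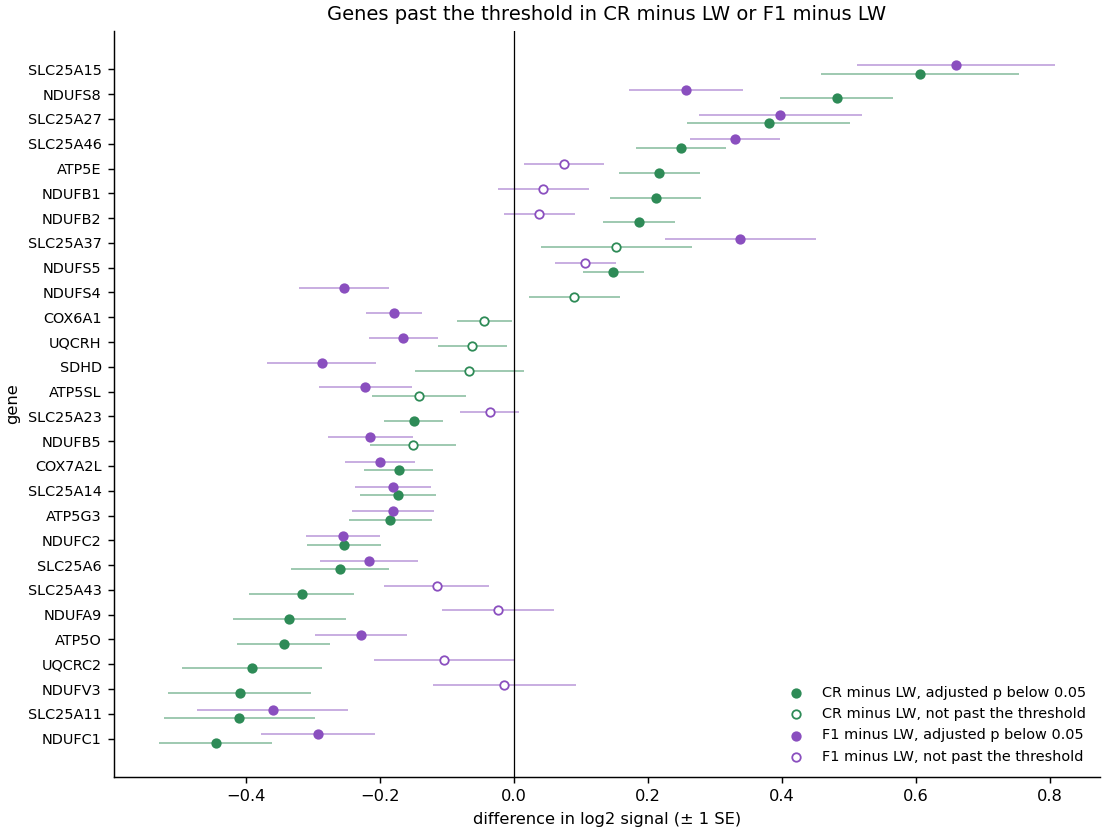
Difference in log2 signal (horizontal axis, ± 1 SE) in CR minus LW (green) and F1 minus LW (purple) for the reported genes past the threshold in either comparison (vertical axis). Filled points passed the threshold. SLC25A15 has the largest rise in both comparisons, and NDUFS4 lies below 0 in F1 and above 0 in CR.

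SLC25A15, which carries ornithine and citrulline for the urea cycle, had the largest rise. Its log2 signal ranged from 11.64 to 12.77 (median 12.16) in LW, from 12.23 to 13.33 (median 12.72) in CR and from 12.08 to 13.52 (median 12.80) in F1. All 12 CR and 11 of 12 F1 animals lay above the LW mean. It was higher by 0.61 in CR (SE 0.15, adjusted p = 0.00272) and by 0.66 in F1 (SE 0.15, adjusted p = 0.00327, limma). That is 1.52-fold and 1.58-fold, from 1 probe, and the CR call was lost without slide 3. SLC25A46, an outer membrane protein of the carrier family that acts in mitochondrial dynamics, was higher by 0.25 in CR and 0.33 in F1 (SE 0.067 in both), with all 12 CR animals above the LW mean. Its 2 probes have 1 and the same sequence. SLC25A27, a brain uncoupling protein family member, was higher by 0.38 in CR and 0.40 in F1 (SE 0.12 in both). Its brighter probe alone was not past the threshold (adjusted p = 0.178 in CR and 0.0872 in F1, limma).

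NDUFS8, an iron-sulphur subunit on the electron path of complex I, had the smallest p in CR minus LW. Log2 signals ran from 12.86 to 13.34 (median 13.12) in LW, from 13.09 to 14.01 (median 13.62) in CR and from 13.01 to 13.61 (median 13.38) in F1. It was higher by 0.48 in CR (SE 0.085, adjusted p = 9.86e-05) and by 0.26 in F1 (SE 0.085, adjusted p = 0.0350). The F1 difference was near the threshold and not stable. It missed the threshold for 9 choices of a single omitted array and for omission of slide 2, 3, 4 or 5. The processed signal and the authors' log2 values also left it uncalled. The CR and F1 differences come from a single probe, printed here because it carries the lead call of complex I.
NDUFS8: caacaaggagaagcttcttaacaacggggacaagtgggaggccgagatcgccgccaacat

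NDUFC1, a small subunit of the membrane arm, moved the other way. Its log2 signal ranged from 11.51 to 11.91 (median 11.70) in LW, from 10.66 to 11.65 (median 11.26) in CR and from 11.1 to 11.75 (median 11.38) in F1, and all 12 CR animals lay below the LW mean. The difference was -0.45 in CR (SE 0.084, adjusted p = 0.000222), and the F1 difference was -0.29 (SE 0.084, adjusted p = 0.0161). NDUFC2, its neighbour in that arm, was at -0.25 in CR and -0.26 in F1, with all 12 animals of each below the LW mean. NDUFV3 (-0.41, SE 0.11) and NDUFA9 (-0.34, SE 0.084) were lower in CR, while in F1 they were at -0.015 and -0.024.

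Other genes that fell in CR were SLC25A11, the oxoglutarate/malate carrier of the malate-aspartate shuttle (-0.41, SE 0.11), ATP5O, a subunit of the ATP synthase stalk (-0.34, SE 0.069, all 12 CR animals below the LW mean), and UQCRC2 (-0.39, SE 0.10). The 2 UQCRC2 probes gave -0.65 and -0.13, and the brighter probe alone was not past the threshold (adjusted p = 0.450). NDUFB1 (0.21, SE 0.068) and ATP5E (0.22, SE 0.060) rose in CR, but the 3 ATP5E probes ranged from 0.063 to 0.52 and 1 of them was called. NDUFB1 rested on 1 probe of low signal, with a mean log2 signal of 5.89 in LW and 6.10 in CR. Its call was lost without slide 3 or slide 4. In F1, SLC25A11 (-0.36, SE 0.11), SDHD, a membrane anchor of complex II (-0.29, SE 0.081), and NDUFS4 (-0.25, SE 0.067) fell, and SLC25A37 rose by 0.34 (SE 0.11, adjusted p = 0.0366). The SLC25A11 call was lost without slide 4 in CR, and without slide 2, 3, 4 or 5 in F1. In F1 it was also lost without F1 HS replicate 4 or LW TN replicate 2. The F1 minus LW call of NDUFS4 was lost without slide 2 or slide 3, and that of SDHD without slide 3. The SLC25A37 rise was not stable. Single arrays were omitted in turn, and 9 of these omissions put it above the threshold. So did omitting slide 1, 2, 3 or 5, using the processed signal, or adding slide as a block. Probes disagreed in size for SDHD, from -0.45 to -0.056 over 9 probes, and its brightest probe alone was not past the threshold (adjusted p = 0.187).

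Probe values of the catalytic ATP synthase subunits also spread widely between genetic groups. In CR minus LW, 15 ATP5A1 probes ran from -0.41 to 0.089, with 3 called, and 10 ATP5B probes from -0.52 to 0.027, with 2 called. Neither gene was called as a mean.

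Markers of macrophages differed between the same groups. Of 6 listed, 5 were kept and 3 (C1QA, C1QB and CD163) were lower in CR and in F1 than in LW, and the mean log2 signal of the 5 ranged from 9.94 to 10.58 in LW, from 9.53 to 9.85 in CR and from 9.48 to 10.23 in F1. Of 5 markers of T and B cells, 3 were lower in CR and 2 in F1. Hepatocyte markers were at 16.56 to 16.87 in LW, 16.64 to 16.79 in CR and 16.61 to 16.85 in F1, with APOA1 lower in both. Among markers of other cell types, DCN of stellate cells and fibroblasts (-0.44), KDR of endothelium (-0.29) and PLIN1 of adipocytes (-0.32) were lower in CR than in LW, and KRT7 of bile duct was higher (0.74). None of these 4 was called in F1 minus LW. The part of these markers in the subunit differences was not tested.

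Within slides 2 to 5, the 12 genes chosen by the naming rule for CR minus LW and the 11 for F1 minus LW had the sign of the pooled difference on every slide, which is a description only, since the rule picked them from the same arrays. SLC25A15 was between 0.37 and 1.1 in CR minus LW, and NDUFC1 between -0.65 and -0.23. Without the 5 arrays lying apart, 28 genes were called in CR minus LW and 36 in F1 minus LW, of which 28 were lower in F1. Without slide 3, with fewer animals, the counts were 10 and 3, and without slide 2 that of F1 minus LW was 8. Without slide 4 they were 14 and 10. The shares of all features called in these refits are not given here, so the changes in count are not read as particular to these genes.

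The cross was then compared with CR and with the mean of both parent breeds. NDUFS4, an accessory subunit needed for complex I assembly and activity, was the 1 gene called in F1 minus CR (0.935%, against 1.38% of all features in either direction and 0.741% lower in F1), at -0.34 (SE 0.067, adjusted p = 0.00477). Its log2 signal ranged from 12.65 to 13.10 (median 12.86) in LW, from 12.74 to 13.15 (median 12.98) in CR and from 12.25 to 13 (median 12.63) in F1, so F1 lay lowest with overlap. With slide as a block, 3 genes were called in F1 minus CR: NDUFS4 (-0.35), NDUFA8 (-0.20, adjusted p = 0.0403) and NDUFA9 (0.30, adjusted p = 0.0354). Against the mid-parent value, NDUFS4 was at -0.30 (SE 0.058, adjusted p = 0.00871) and COX6A1, the liver form of subunit VIa, at -0.16 (SE 0.036, adjusted p = 0.0288), and these were the 2 genes called (1.87%, against 0.675% of all features in either direction and 0.39% lower). All 12 F1 animals lay below the LW mean of COX6A1. The 2 NDUFS4 probes share 56 bases.

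The mid-parent count rested on a few arrays, and the shares of all features called in the same refits are not set beside it. It was 4 without F1 HS replicate 1 or 2, and 1 without F1 HS replicate 3 or 4 or F1 TN replicate 1 or 6, when COX6A1 was lost. Without all 5 arrays lying apart it was 17, of which 14 were lower in F1, among them NDUFS4 (-0.37), SDHD (-0.38), ATP5A1 (-0.29) and ATP5B (-0.23), while SLC25A27 (0.41), SLC25A37 (0.37) and SLC25A46 (0.31) were higher. In F1 minus CR, NDUFS4 kept its call when any 1 array was left out and lost it without slide 2 or slide 3, and with 1 array left out the count ranged from 1 to 3.

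**Figure D5:**
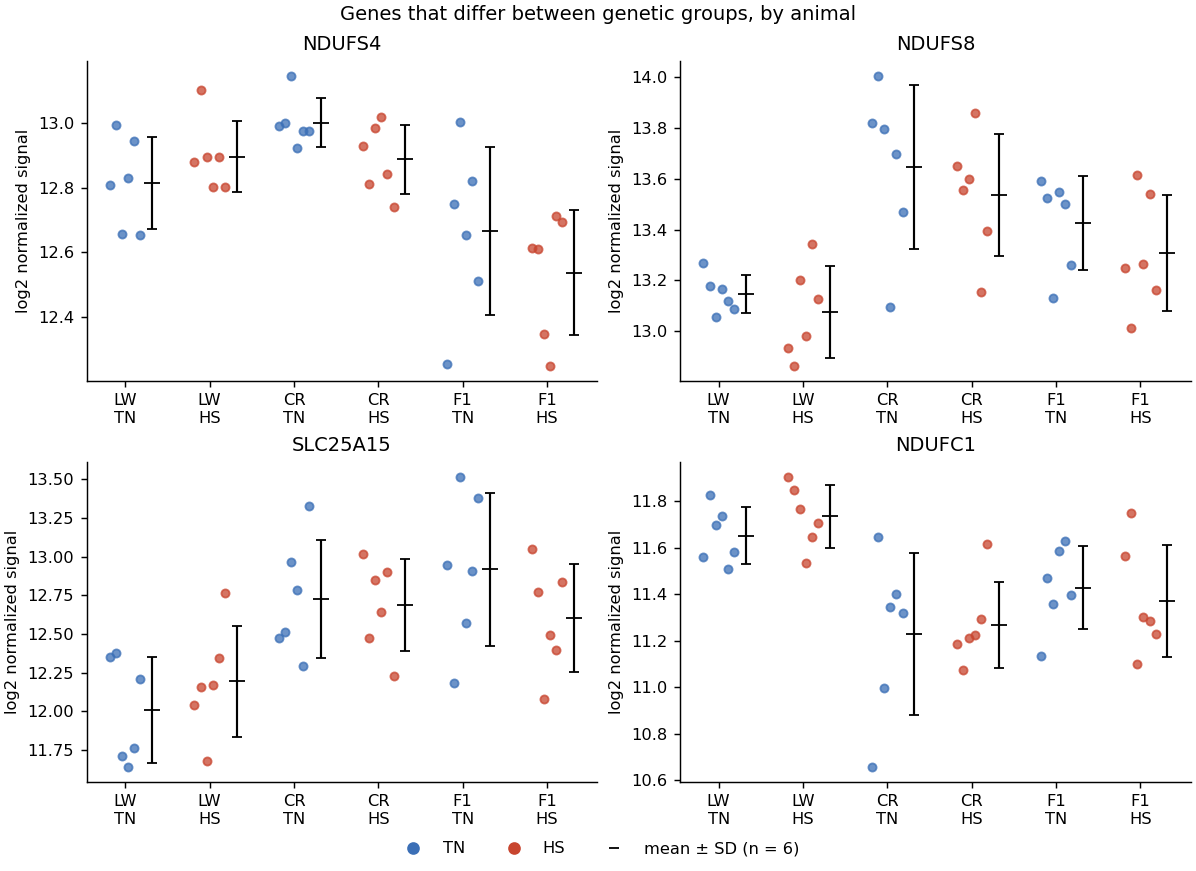
Log2 normalized signal of NDUFS4, NDUFS8, SLC25A15 and NDUFC1 (vertical axes) in each animal, by genetic group and temperature. Points are animals, and black bars are the mean ± SD of 6. F1 lies lowest for NDUFS4, LW lowest for NDUFS8 and SLC25A15, and LW highest for NDUFC1.

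Among the other mitochondrial genes, calls between genetic groups went both ways. The genes named here were chosen after their values were seen. In CR minus LW, SIRT3, the mitochondrial deacetylase, was at -0.50 (SE 0.067), the uncoupling protein UCP2 at -0.33 (SE 0.10), the import receptor TOMM70A at 0.39 (SE 0.073) and the outer membrane channel VDAC1 at 0.21 (SE 0.050). In all, 3 of 15 regulators of biogenesis were higher and 2 lower, and 5 of 21 membrane proteins higher and 2 lower, where 14.3% of all features were higher and 10.9% lower. In F1 minus LW, 2 of 15 regulators were lower, and 2 of 21 membrane proteins were higher and 5 lower, where 9.31% of all features were higher and 7.18% lower. All 13 protein genes of the mitochondrial genome, looked at after these values were seen, were called higher in F1 than in LW, from 0.20 for ND6 to 0.92 for ND2, while 15 of the 20 nuclear genes called there were lower. In CR minus LW, 5 of the 13 were called, each higher in CR, with ND4L at 0.48 (SE 0.067).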

How the data were processed

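Liver RNA was labelled with Cy3 and hybridised to 1-colour Agilent pig arrays. Feature Extraction of Agilent, version 10.10.1.1 in the submitters' processing notes, gave the deposited scanner tables, whose signals are intensity values on a linear scale without scaling across arrays. A further deposited table holds log2 values, which the methods describe as quantile normalized. In it the median of a probe over arrays lay between 7.519 and 7.847 for all probes (array medians 7.656 to 7.659), so it holds differences and no levels, and it was used as an alternative. The deviations in it correlated at 0.959 with those computed here.

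Here log2 of the median signal of each spot was taken first and quantile normalization over 60306 non-control spots followed, in the reverse order of the methods. Non-uniform spots, 107 over all arrays, were left out, and no spot was saturated. Probes that passed the background filter (6 of 36 arrays) were averaged per gene name read in capitals, which gave 33056 features. Gene names are those of the array files, and 96 of the 109 are in the RefSeq table of Sscrofa11.1. Levels of different probes were not compared as amounts of RNA. They were used to name bright or dim features and probes, the brightest probe of a gene and the reversed probe of a pair. The median signal was 70.0 to 92.0 per array over a background of 18.0 to 25.0, and the number of arrays limits the precision.

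The tests used limma (version 3.58.1, R 4.3.3), with an additive model of breed and temperature fitted to the 36 arrays and a means model of the 6 groups for effects within breed and the interaction (two-sided, Benjamini-Hochberg over all features, threshold 0.05). The pen, slaughter day and parents in the study's model are not in the labels. The 5 slides, each balanced for temperature, were tested as a batch. Tested on simulated data of 33014 features, the HS minus TN comparison recovered 52% of log2 changes of 0.25 and 94% of 0.5. There were 3 false calls. The simulated noise was independent between animals and held no slide, litter, pen or slaughter day, so these rates need not hold for the real arrays.

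The members and lists were chosen with earlier results of these data known. Named genes were all called genes and the smallest p of each class for HS minus TN, the 6 largest rises and falls with one sign at both temperatures for CR or F1 minus LW, up to 4 called genes for the other comparisons, and a list of well-known subunits and carriers. Others are said to be named after their values were seen. Alternatives were other signals, background corrections, filters, probe choices, the slide as a block, another spread estimate, no breed term, and leaving out arrays or slides. Merging COX6B with COX6B1, leaving out reversed probes centring probes before averaging and reading names as spelled were added after seeing the data. Promoter sequence was not used here. The values of 1 gene are not reported here, although counts over the genes include it.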

Additional observations from a re-analysis of the deposited data

Results flagged for a closer look

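An animal was picked out where its gap to the nearest animal of its group, divided by the range of the 6, passed the limit of Dixon's test. Of 270 groups of 6 checked over 45 genes, 14 were picked out, and chance alone gives about 1 in 20, or 13.5. For COX4I1, CR HS replicate 4 was the highest of its group, with a gap of 0.628 of the range. LW HS replicate 1 was the lowest of its group for COX5A (gap 0.732 of the range). A gap of 0.67 of the range set F1 HS replicate 2 apart as the lowest for COX5B. For COX6A1, LW HS replicate 1 was the highest of its group, with a gap of 0.655 of the range. F1 HS replicate 5 was the lowest of its group for NDUFAB1 (gap 0.867 of the range). For NDUFS4, LW HS replicate 2 was the highest of its group, with a gap of 0.689 of the range. CR TN replicate 3 was the highest of its group for NDUFS4 (gap 0.646 of the range). A gap of 0.687 of the range set LW TN replicate 2 apart as the highest for SDHB. For SLC25A11, LW HS replicate 4 was the highest of its group, with a gap of 0.719 of the range. LW HS replicate 1 was the highest of its group for SLC25A25 (gap 0.825 of the range). A gap of 0.696 of the range set CR HS replicate 6 apart as the highest for SLC25A3. For SLC25A37, LW HS replicate 3 was the lowest of its group, with a gap of 0.635 of the range. LW HS replicate 1 was the lowest of its group for UQCRFS1 (gap 0.753 of the range). A gap of 0.816 of the range set CR HS replicate 5 apart as the highest for UQCRFS1. For COX5B, a called gene, the animal is one of the 5 arrays lying apart.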

How the results depend on the processing

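No paired analysis was possible because the replicate numbers were given in accession order and only name animals. The signal was well above background on all 36 arrays for 260 of the 273 kept probes, and a dim signal limits the others, such as those of SLC25A25. Among named genes past the threshold, 1542 of 1679 values under the alternatives kept direction and call, 137 kept the direction and lost the call, and 0 reversed. Most of these alternatives omit a single array and share all other arrays with the main fit. The genes were also called on the same arrays, so these counts are a description and no measure of stability. They hide differences between genes, as COX5B lost its HS minus TN call in 21 of the single-array omissions. Among named genes not past the threshold, NDUFAB1 gained a call under normexp background correction (adjusted p = 0.0284) and without F1 TN replicate 5. The causes of these shifts were not tested, and leaving out a slide also leaves fewer animals.

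The count of genes called between HS and TN (4) was 2 with the processed signal scaled to the 75th percentile, 2 with the authors' log2 values, 1 with the brightest probe per gene, 2 with no breed term and 1 without the 5 arrays lying apart. It was 1, 1, 2, 1 and 0 without slides 1 to 5, and 2 to 6 with 1 array left out. Within CR it was 0 to 1, the 1 being found without CR TN replicate 4. In CR minus LW (22) it was 10 without slide 3, 14 without slide 4 and 21 to 26 with 1 array left out. In F1 minus LW (20) it was 36 without the 5 arrays, 8, 3 and 10 without slides 2, 3 and 4, and 14 to 25 with 1 array left out. In F1 minus CR (1) it was 3 under normexp, 3 with probes well above background on all arrays, 2 with the brightest probe, 5 with every probe tested, 3 with slide as a block, 3 without the 5 arrays, 0 without slide 3, 2 with names as spelled, and 1 to 3 with 1 array left out. Against the mid-parent value (2) it was 1 with the processed signal, 1 with the authors' values and 1 with the brightest probe. It was 17 without the 5 arrays, and 4, 0, 0, 1 and 1 without slides 1 to 5. With 1 array left out it ranged from 1 to 4. The shares of all features called under these alternatives are not given, so changes in these counts are not read as particular to the genes.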
